A study of Mus musculus with 6 samples.

Results

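Glycolysis was read from 8 genes of the expression table, chosen by gene symbol alone: Aldoa, Aldoc, Tpi1, Gapdh, Pgk1, Pgam1, Eno1 and Ldha. They are 8 of the 10 symbols asked for, and Pkm and Gpi1 were not analysed here. The table held 8191 genes. The cells were labelled as myeloid-derived suppressor cells (MDSCs), immature myeloid cells that restrain T cells, and were taken from the spleens of aged mice on a BALB/c background and not cultured. WT mice were compared with Tnfr1-/- mice and with Tnfr2-/- mice, which lack one or the other receptor for TNF, in order to ask how each receptor bears on MDSCs in ageing. All mice were 18 to 24 months old, and no group of young mice or of treated cells entered the table. Each genotype had 2 samples, and each sample was a pool of 5 mice, so that 6 samples were available and differences between single mice could not be seen. The labels name cell sorting, while the methods describe a kit for MDSCs whose product was checked for CD45, Gr1 and CD11b, a definition that takes in granulocytic and monocytic forms. The WT samples went against that label in Ly6c1 and the listed granulocyte markers, which were low in them. Ptprc, the gene of CD45, was expressed in them. Most listed macrophage and dendritic cell markers were higher in WT than in the knockouts, with values given at the end. Every cell of a knockout animal carried the deletion.

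Glycolysis splits glucose into pyruvate in the cytosol and yields ATP and NADH. Aldolase and triose phosphate isomerase prepare the triose, Gapdh oxidises it, Pgk1 makes the first ATP, Pgam1 and Eno1 move and dehydrate the phosphate ester, and lactate dehydrogenase returns NADH to NAD+ by turning pyruvate into lactate. Myeloid cells lean on this pathway for energy when they are activated, and several of its genes are known targets of the oxygen-sensing factor HIF-1. Gapdh is also used as a loading standard when other genes are measured.

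Values are FPKM, fragments scaled by transcript length and by sequencing depth, as deposited. Changes were tested with limma on log2(FPKM + 1) over all 8191 genes, a scale which understates the change of low genes, and a gene was called at a Benjamini-Hochberg adjusted p under 0.05 and a fold change over 1.5. An analysis of variance over the genotypes, recomputed from the values, gave a p under 0.05 for 8191 of 8191 genes, so the table holds genes already picked for a difference. The listed genes summed to between 344714 and 346870 FPKM in the WT samples and to between 133604 and 155248 FPKM in the knockouts. Numbers in the WT columns run to 10 digits and those in the knockout columns to 6, so how the values were made and the genotype cannot be told apart. The median of all genes was -0.74 on the log2 scale in Tnfr2-/- against WT and -0.83 in Tnfr1-/- against WT, and it was -0.03 in both after median-ratio scaling, which centres each sample on the typical gene. Each change of the 8 genes from WT is therefore given on both scales. Tnfrsf1b, the gene of TNFR2, had 112 and 115 FPKM in WT, 47.8 and 69.6 FPKM in Tnfr1-/- and 11.3 and 14.3 FPKM in Tnfr2-/-. After median-ratio scaling Tnfr1-/-, at 62.3 and 94.0, overlapped WT, at 67.0 and 69.3, and Tnfr2-/- was at 14.3 and 16.2. The Tnfr1-/- labels were not checked, since Tnfrsf1a was not analysed here.

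All 8 glycolytic genes fell in both knockouts on the deposited scale. They fell by very different amounts. Aldoc and Gapdh lost nearly all of their signal, a middle set of Aldoa, Tpi1, Pgam1 and Eno1 fell to about the same degree as each other, and Pgk1 and Ldha fell least. In Tnfr2-/- against WT, 8 of 8 were called lower, where 57.1% of all genes were called lower and 70.7% were called in either direction. Their median log2 change was -2.33, against -0.74 over all genes. Both Tnfr2-/- samples lay below both WT samples for 8 of 8 members, where they did for 77.2% of all genes, and both Tnfr1-/- samples did so for 8 of 8, where 77.3% of all genes did. In Tnfr1-/- against WT, 8 of 8 were again called lower, where 60.7% of all genes were called lower and 74.8% in either direction, and the median was -2.36 against -0.83. After median-ratio scaling, 6 of 8 were called lower in each comparison, where 21.0% of all genes were in Tnfr2-/- and 22.1% in Tnfr1-/-, and the medians were -1.34 and -1.22. The 2 that were no longer called were Pgk1 and Ldha, and Ldha was then above WT, at 0.24 and 0.49 on the log2 scale. Both comparisons use the same WT samples. In bulk samples, fewer cells of a type and less RNA per cell cannot be told apart.

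**Figure D1:**
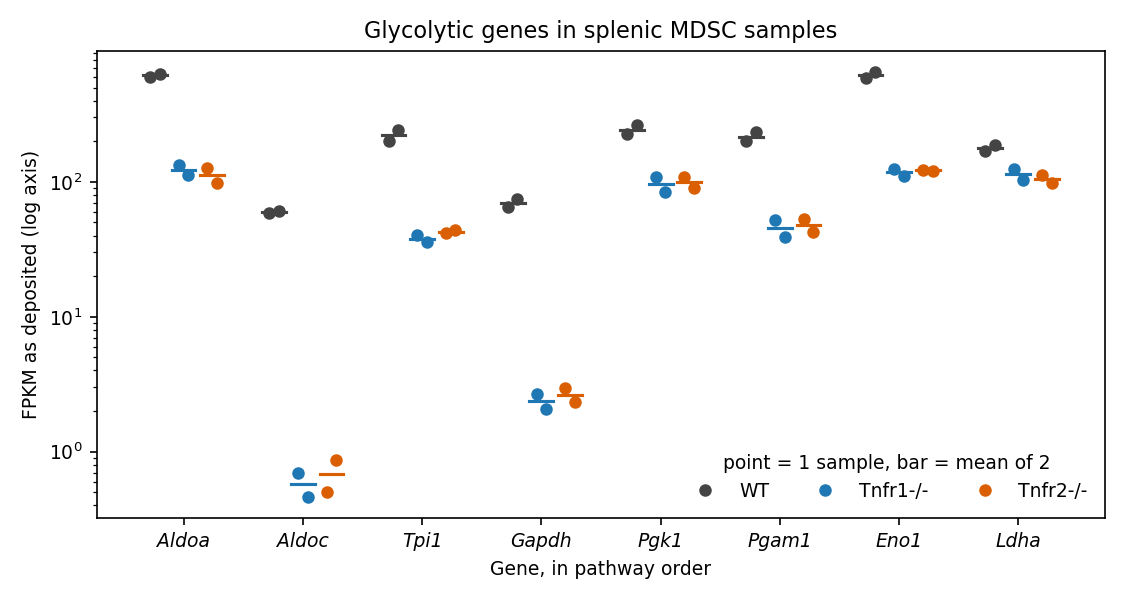
FPKM as deposited (log axis) of the 8 glycolytic genes in pathway order, with a point for each sample and a bar for the mean of the 2 samples of a genotype. Every knockout point lies below both WT points of its gene, with the widest gaps for Aldoc (58.7 and 60.9 FPKM in WT, under 1 in all 4 knockout samples) and Gapdh, and the narrowest for Ldha. On the median-ratio scale the knockout means of Ldha are above the WT mean.

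The first step represented was aldolase, which cleaves fructose 1,6-bisphosphate. Aldoa is the form found in most cells and in muscle, and Aldoc is the form best known from brain. Aldoa (GRCm38 chr7:126795234-126800751, minus strand, 9 exons, protein coding) was at 601 and 635 FPKM in WT, at 132 and 112 FPKM in Tnfr1-/-, and at 126 and 97.5 FPKM in Tnfr2-/-. Both knockouts lay below both WT samples and overlapped each other. The mean was 5.05-fold lower in Tnfr1-/- (log2 change -2.33 ± 0.164, SE, limma adjusted p = 0.00016) and 5.52-fold lower in Tnfr2-/- (-2.47 ± 0.164, limma adjusted p = 0.00016), with n = 2 samples a genotype throughout. On the median-ratio scale these log2 changes were -1.19 and -1.47, and both were still called.

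Aldoc (GRCm38 chr11:78322968-78327781, plus strand, 9 exons, protein coding) was at 58.7 and 60.9 FPKM in WT. It was at 0.695 and 0.465 FPKM in Tnfr1-/- and at 0.507 and 0.863 FPKM in Tnfr2-/-. The WT samples stood far above all 4 knockout samples, which overlapped each other. The ratio of mean FPKM was 103 in Tnfr1-/- and 87.3 in Tnfr2-/-, while the fitted log2 changes were -5.27 ± 0.143 (SE, limma adjusted p = 1.4e-05) and -5.18 ± 0.143 (limma adjusted p = 1.6e-05). With 0.1 added in place of 1, the same changes read -6.48 and -6.29, since the added 1 exceeds the knockout values themselves. On the median-ratio scale they were -4.39 and -4.36. In rank, Aldoc went from place 867 and 831 of 8191 in the WT samples to places between 6299 and 6648 in the knockouts.

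No 50-base read from a coding sequence matches both aldolase genes in full. The coding sequences of Aldoa and Aldoc were 75.5% identical, and the longest run of letters that they share was 26 bases, starting at base 520 of both. Bases 495 to 570 of each coding sequence are shown because they hold that run, which is in capitals (GENCODE M21 transcripts, sense strand).
Aldoa: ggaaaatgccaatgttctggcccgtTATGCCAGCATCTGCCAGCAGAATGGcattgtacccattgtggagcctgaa
Aldoc: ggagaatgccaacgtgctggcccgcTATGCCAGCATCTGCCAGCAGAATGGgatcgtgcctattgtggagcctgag
Of the 2924 windows of 50 bases in the protein-coding transcripts of Aldoc, 0 occurred in another gene, and of the 3091 windows of Aldoa, 6.57% did. The fall of Aldoc was therefore measured in a gene with no shared window.

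The share of each gene in the aldolase pair is not moved by a single scaling factor per sample. Aldoc made 8.90% and 8.75% of the summed FPKM of the pair in WT. It made 0.523% and 0.412% in Tnfr1-/- and 0.400% and 0.878% in Tnfr2-/-. The log2 ratio of Aldoc to Aldoa, with 1 added to each, averaged -3.35 in WT, -6.28 in Tnfr1-/- and -6.06 in Tnfr2-/-. The differences from WT were -2.94 and -2.72, larger than the gap between samples of any genotype. The exact permutation test over samples gave a two-sided p of 0.333 for each, which is the smallest that 2 against 2 samples allow.

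Tpi1 makes the second triose of the aldolase reaction usable. Tpi1 (GRCm38 chr6:124810586-124814296, minus strand, 7 exons, protein coding) was at 201 and 241 FPKM in WT, at 40.1 and 35.8 FPKM in Tnfr1-/-, and at 41.9 and 43.7 FPKM in Tnfr2-/-. Both knockouts were below WT, and Tpi1 was the single member whose Tnfr2-/- samples both lay above both Tnfr1-/- samples. The log2 change from WT was -2.51 ± 0.118 (SE, limma adjusted p = 5.2e-05) in Tnfr1-/- and -2.33 ± 0.118 (limma adjusted p = 7.3e-05) in Tnfr2-/-, and -1.38 and -1.35 after median-ratio scaling.

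Gapdh (GRCm38 chr6:125161715-125166467, minus strand, 7 exons, protein coding) oxidises glyceraldehyde 3-phosphate and takes up phosphate. It was at 65.3 and 74.6 FPKM in WT, at 2.69 and 2.07 FPKM in Tnfr1-/-, and at 2.96 and 2.33 FPKM in Tnfr2-/-. All 4 knockout samples were far below both WT samples and overlapped each other. The mean was 29.4-fold lower in Tnfr1-/- (log2 change -4.39 ± 0.150, SE, limma adjusted p = 2.2e-05) and 26.4-fold lower in Tnfr2-/- (-4.28 ± 0.150, limma adjusted p = 2.6e-05). The median-ratio values were -3.38 and -3.37. Gapdh stood at place 782 and 675 of 8191 in WT and between places 4890 and 5361 in the knockouts. Even in WT it was lower per length than the other members apart from Aldoc, with Aldoa at 9.21 and 8.52 times its FPKM. In the knockouts Aldoa was at 41.9 to 54.3 times Gapdh.

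Gapdh is a gene with many processed copies. Of the 1943 windows of 50 bases in its protein-coding transcripts, 58.4% also occurred in another annotated gene, and 177 other genes held 10 or more of them. Within the coding sequence all 950 of 950 windows were shared. The window below, bases 415 to 464 of the Gapdh coding sequence, is shown because it was found in 84 other genes, so a read from it has no single place in the genome.
Gapdh: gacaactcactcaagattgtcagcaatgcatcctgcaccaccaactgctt
How such reads were counted is not given in the sources used here. The FPKM of Gapdh is therefore uncertain in all 6 samples, and the part of shared reads in its fall was not tested.

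Pgk1 makes ATP from 1,3-bisphosphoglycerate. Pgk1 (GRCm38 chrX:106187100-106203699, plus strand, 11 exons, protein coding) was at 226 and 262 FPKM in WT, at 109 and 84.5 FPKM in Tnfr1-/-, and at 109 and 89.6 FPKM in Tnfr2-/-. On the deposited scale the knockouts lay below WT and overlapped each other. The log2 change was -1.33 ± 0.178 (SE, limma adjusted p = 0.0012) in Tnfr1-/- and -1.29 ± 0.178 (limma adjusted p = 0.0015) in Tnfr2-/-. After median-ratio scaling it was -0.20 ± 0.20 (limma adjusted p = 0.42) and -0.30 ± 0.20 (limma adjusted p = 0.23), so the call was lost in both. With each sample scaled to the same sum, Pgk1 was 0.028 above WT in Tnfr1-/- and at -0.12 in Tnfr2-/-.

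Pgam1, which shifts the phosphate from carbon 3 to carbon 2 of the glycerate, followed the middle set. Pgam1 (GRCm38 chr19:41911923-41918660, plus strand, 4 exons, protein coding) was at 200 and 233 FPKM in WT, at 52.5 and 38.8 FPKM in Tnfr1-/-, and at 53.5 and 42.4 FPKM in Tnfr2-/-. The knockouts overlapped each other below WT. The log2 change was -2.23 ± 0.196 (SE, limma adjusted p = 0.00031) and -2.15 ± 0.196 (limma adjusted p = 0.0004), and -1.10 and -1.17 after median-ratio scaling.

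Eno1, the enolase that forms phosphoenolpyruvate, was among the highest members in every sample. Eno1 (GRCm38 chr4:150236721-150248879, plus strand, 12 exons, protein coding) was at 586 and 652 FPKM in WT, at 125 and 110 FPKM in Tnfr1-/-, and at 123 and 121 FPKM in Tnfr2-/-. The knockouts lay below WT and overlapped each other. Eno1 stood at places from 62 to 185 of 8191 in all samples, although its FPKM fell 5.26-fold in Tnfr1-/- and 5.07-fold in Tnfr2-/-. The log2 change was -2.39 ± 0.114 (SE, limma adjusted p = 5.4e-05) and -2.33 ± 0.114 (limma adjusted p = 6.6e-05), and -1.25 and -1.34 after median-ratio scaling.

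Eno1b, a copy of the Eno1 coding sequence that was chosen for mention after its values were seen, moved the other way. Eno1b was at 8.49 and 10.1 FPKM in WT, at 43.7 and 40.3 FPKM in Tnfr1-/-, and at 47.4 and 43.5 FPKM in Tnfr2-/-. All knockout samples were above WT, with log2 changes of 2.07 ± 0.106 (SE, limma adjusted p = 6.6e-05) and 2.18 ± 0.106 (limma adjusted p = 6.6e-05), and 3.11 and 3.08 after median-ratio scaling. The coding sequences of Eno1 and Eno1b were 99.4% identical with a shared run of 725 bases, and 85.2% of the 1826 windows of Eno1b and 49.5% of the 2884 windows of Eno1 occurred in another gene, so reads cannot be divided between them with certainty. Eno1b took 1.43% and 1.52% of the summed FPKM of the pair in WT, 25.9% and 26.8% in Tnfr1-/-, and 27.7% and 26.5% in Tnfr2-/-. The sum of both was 594 and 662 FPKM in WT, 169 and 150 FPKM in Tnfr1-/-, and 171 and 164 FPKM in Tnfr2-/-, so with the pair taken as one the log2 difference from WT was -1.97 and -1.90 on the deposited scale. Whether a different division of shared reads between the WT and knockout samples had a part in this was not tested.

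Ldha, the muscle-type subunit of lactate dehydrogenase, fell least. Ldha (GRCm38 chr7:46841475-46855627, plus strand, 8 exons, protein coding) was at 169 and 187 FPKM in WT, at 124 and 103 FPKM in Tnfr1-/-, and at 113 and 98.2 FPKM in Tnfr2-/-. On the deposited scale the knockouts were below WT and overlapped each other. The log2 change was -0.64 ± 0.136 (SE, limma adjusted p = 0.0065) in Tnfr1-/- and -0.75 ± 0.136 (limma adjusted p = 0.0042) in Tnfr2-/-, close to the medians of all genes, -0.83 and -0.74. The Tnfr1-/- call was lost without WT replicate 2, at -0.57, and without Tnfr1-/- replicate 2, at -0.51. On the median-ratio scale Ldha was at 101 and 113 in WT, 162 and 139 in Tnfr1-/-, and 143 and 112 in Tnfr2-/-, a log2 change of 0.49 ± 0.16 (limma adjusted p = 0.042, under the fold threshold) and 0.24 ± 0.16 (limma adjusted p = 0.24). With equal sums the values were 0.71 (limma adjusted p = 0.0087), which was a call, and 0.43 (limma adjusted p = 0.049).

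**Figure D2:**
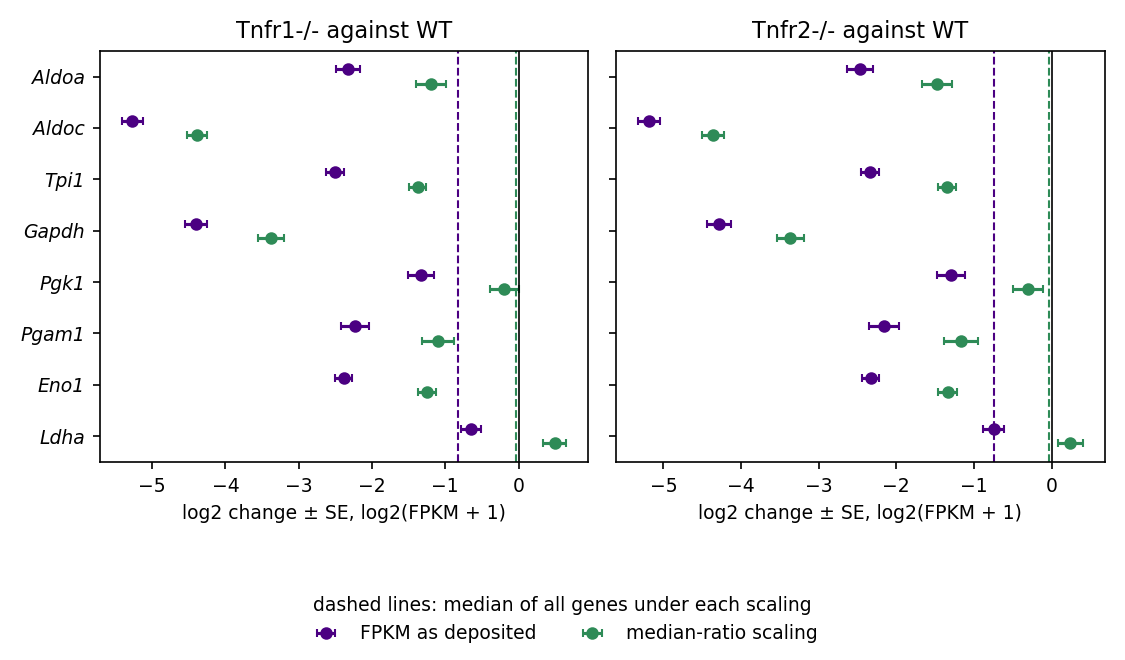
log2 change from WT ± SE on log2(FPKM + 1) for each gene, with FPKM as deposited and after median-ratio scaling, for Tnfr1-/- (left) and Tnfr2-/- (right). Dashed lines are the medians of all 8191 genes (-0.83 and -0.74 as deposited). Aldoc and Gapdh lie farthest left on both scales, Pgk1 comes close to 0 after scaling, and Ldha crosses to the right of 0.

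The make-up of the pathway within a sample is not moved by a single scaling factor per sample, as in median-ratio or same-sum scaling, though quantile scaling can move it. The 8 genes summed to 2105 and 2346 FPKM in WT, to 587 and 487 FPKM in Tnfr1-/-, and to 570 and 495 FPKM in Tnfr2-/-. Of that sum, Ldha took 8.01% and 7.96% in WT, 21.2% and 21.2% in Tnfr1-/-, and 19.8% and 19.8% in Tnfr2-/-. Pgk1 took 10.7% and 11.2% in WT, 18.6% and 17.3% in Tnfr1-/-, and 19.1% and 18.1% in Tnfr2-/-. Both knockouts thus held a larger share of these 2 genes than either WT sample. The shares of Aldoa and Eno1 went down from 28.5% and 27.1% and from 27.8% and 27.8% in WT to between 19.7% and 23.1% and between 21.3% and 24.4% in the knockouts. Gapdh took 3.10% and 3.18% in WT and between 0.425% and 0.520% in the knockouts. In Tnfr1-/- the mean shares of Aldoa, Eno1 and Ldha were 22.8 ± 0.386%, 22.0 ± 0.886% and 21.2 ± 0.0184% (SD, n = 2). Set against each other, Ldha was at 0.747 and 0.713 times Pgk1 in WT, 1.14 and 1.22 times in Tnfr1-/-, and 1.04 and 1.10 times in Tnfr2-/-.

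**Figure D3:**
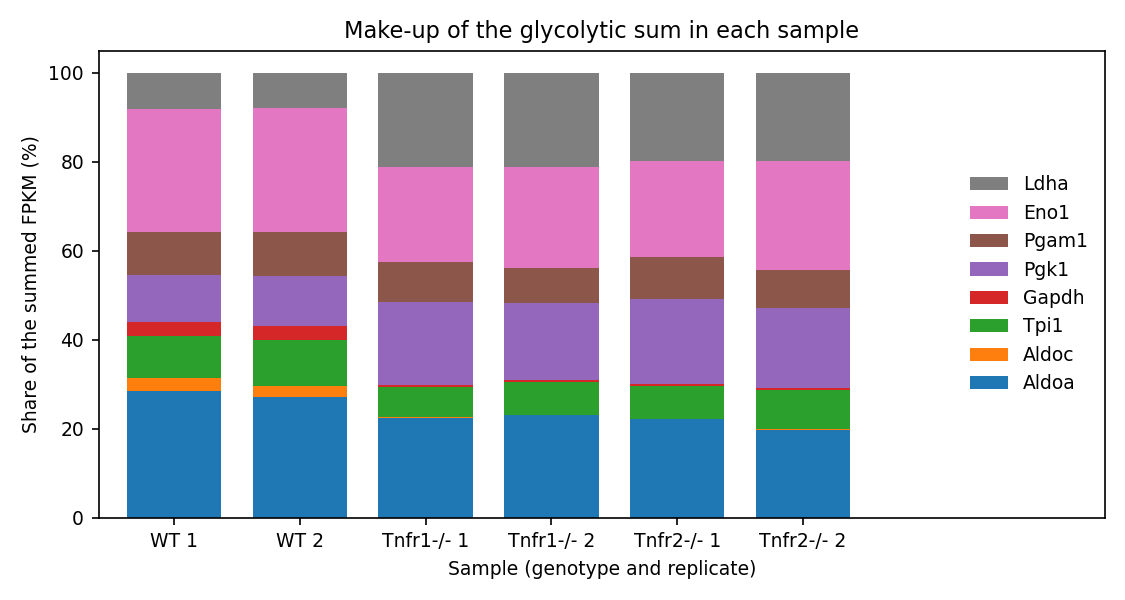
Share of the summed FPKM of the 8 genes (%) taken by each gene in each sample, stacked to 100%. Ldha widens from 8.01% and 7.96% in WT to about 20% in the 4 knockout samples and Pgk1 widens with it, while Aldoc and Gapdh shrink to thin lines.

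In rank among all listed genes the members kept different places. Ldha went from places 272 and 237 in WT to places between 131 and 239 in the knockouts, and Pgk1 from 193 and 167 to between 157 and 259, so that both overlapped WT. Aldoa went from 68 and 65 to between 117 and 244, Tpi1 from 221 and 179 to between 571 and 668, and Pgam1 from 224 and 187 to between 418 and 640, with no overlap. The order of the group means in WT was Eno1 and Aldoa, then Pgk1, Tpi1 and Pgam1, then Ldha, then Gapdh, then Aldoc. Eno1 and Aldoa did not differ beyond the spread of their samples in WT, nor did Tpi1 and Pgam1, and the ranges of Pgk1 and Tpi1 overlapped. In both knockouts Gapdh and Aldoc stayed last, and the mean of Ldha lay above those of Pgk1, Pgam1 and Tpi1, which it did not in WT.

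Between the knockouts no glycolytic gene was called. In Tnfr2-/- against Tnfr1-/-, 0 of 8 passed, where 1.45% of all genes did, and 0 of 8 had an unadjusted limma p under 0.05. The log2 changes ran from -0.13 for Aldoa to 0.17 for Tpi1, with a smallest limma adjusted p of 0.44. Their median was 0.066, against 0.060 over all genes. The 95% intervals of the 8 differences lay between -0.56 and 0.58 on the log2 scale. For Gapdh the interval was -0.28 to 0.50 and for Aldoc -0.28 to 0.46. Tpi1 was the 1 member of 8 whose samples did not overlap between the knockouts, where 51.0% of all genes did not.

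Sequence sharing differed widely among the members. The share of 50-base windows found in another gene was 0 for Aldoc, 6.57% for Aldoa, 6.83% for Tpi1, 10.4% for Ldha, 41.5% for Pgam1, 49.5% for Eno1, 58.4% for Gapdh and 68.0% for Pgk1. The median over the 8166 listed genes that matched the annotation was 0.137%. The largest fall was in the gene with no shared window, and the smallest falls were in one gene with 10.4% and one with 68.0%. Among all listed genes, the 304 with at least 50% of windows shared had a median log2 change of -0.78 in Tnfr2-/- and -0.89 in Tnfr1-/-, and the 3895 with none had -0.75 and -0.84. The part of shared reads in the change of any single gene was not tested.

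**Figure D4:**
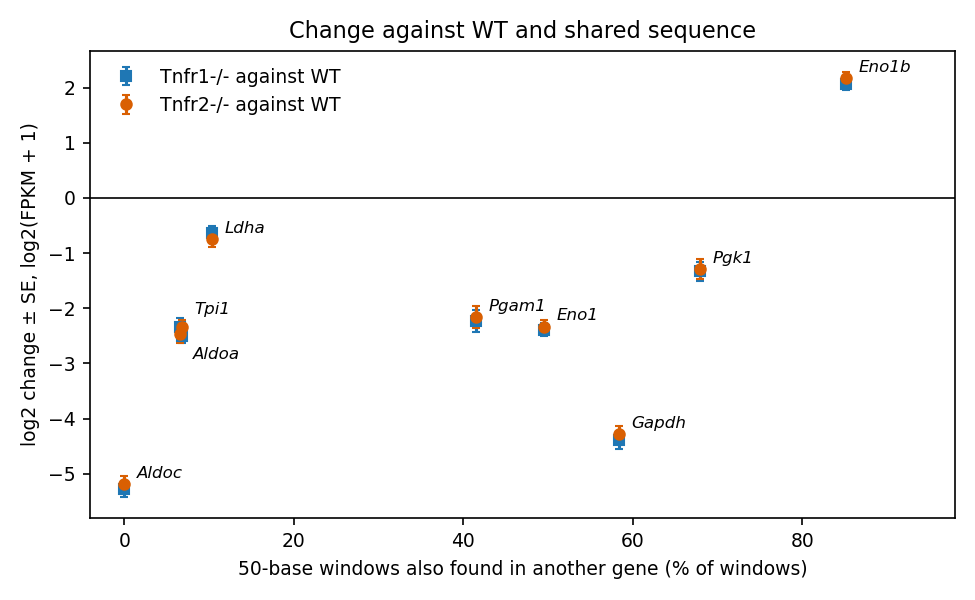
log2 change from WT ± SE (deposited scale) against the percentage of 50-base windows of a gene found elsewhere too, for the 8 genes and Eno1b, with squares for Tnfr1-/- and circles for Tnfr2-/-. Aldoc, at 0% shared, has the largest fall, Gapdh falls by over 4 at 58.4%, and Eno1b, at 85.2%, lies above 0.

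The regions upstream of the start sites were searched for ACGTG, a form of the core letters bound by HIF-1, on both strands (ACGTG or CACGT). The search covered the 250 bases before each start (RefSeq, GRCm38.p6). GCGTG, another form of that core, was not searched for, and regions without a match can hold it, as the Gapdh region below does. Matches were 5 in Ldha, in 3 separate stretches, 2 of which match on both strands at overlapping letters, 2 in Pgk1, 1 in Aldoa and 1 in Pgam1, and 0 in Aldoc, Tpi1, Gapdh and Eno1. Of all 32851 promoters of the same length, 16.6% held a match and 6.81% held 2 or more, and among promoters of listed genes 21.1% held a match. The 2 members with more than 1 match were those that fell least. Aldoa and Pgam1, with 1 match, fell about as much as Tpi1 and Eno1, with 0. Whether the matches bear on the changes was not tested. A match is a string of letters and no measure of binding. Ldha (chr7:46845554-46845803, plus strand), Pgk1 (chrX:106186850-106187099, plus strand) and Gapdh (chr6:125165774-125166023, minus strand) are shown, with matches in capitals. They set the genes with most matches beside Gapdh, which had a large fall and no match to ACGTG or CACGT.
Ldha: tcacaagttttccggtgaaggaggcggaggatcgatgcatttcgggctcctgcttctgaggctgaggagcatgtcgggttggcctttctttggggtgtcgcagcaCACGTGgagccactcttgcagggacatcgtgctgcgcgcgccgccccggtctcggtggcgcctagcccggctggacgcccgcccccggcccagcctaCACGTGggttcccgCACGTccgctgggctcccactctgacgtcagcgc
Pgk1: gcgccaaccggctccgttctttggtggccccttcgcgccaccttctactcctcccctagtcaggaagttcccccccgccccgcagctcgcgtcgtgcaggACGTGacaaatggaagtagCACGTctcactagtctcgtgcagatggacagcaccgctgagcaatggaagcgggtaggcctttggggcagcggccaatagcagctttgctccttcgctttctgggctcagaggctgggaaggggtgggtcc
Gapdh: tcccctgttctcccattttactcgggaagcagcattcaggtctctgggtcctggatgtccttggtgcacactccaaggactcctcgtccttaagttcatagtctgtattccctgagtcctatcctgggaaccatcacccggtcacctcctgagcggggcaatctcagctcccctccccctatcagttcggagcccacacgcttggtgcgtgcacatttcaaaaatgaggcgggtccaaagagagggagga

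Other genes of glucose metabolism were called lower or higher at shares near those of all genes. Of 90 genes in the lists drawn up, 43 were listed. In Tnfr2-/- against WT, 27 were called lower, 7 higher and 9 were not called, and in Tnfr1-/- against WT the counts were 30, 8 and 5. Their medians, -1.04 and -0.90, lay near those of all genes, -0.74 and -0.83, and among all genes 57.1% and 60.7% were called lower and 13.6% and 14.1% higher. After median-ratio scaling the counts were 12 lower and 9 higher in Tnfr2-/-, and 13 lower and 9 higher in Tnfr1-/-, with medians of -0.12 and -0.03, where 21.0% and 22.1% of all genes were called lower and 21.8% and 23.3% higher.

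Glucose enters through GLUT transporters. Slc2a3, which encodes the high-affinity transporter GLUT3, had the largest change of the pathway genes in both comparisons. It was at 2.39 and 2.14 FPKM in WT, at 84.6 and 72.2 FPKM in Tnfr1-/-, and at 84.9 and 45.0 FPKM in Tnfr2-/-. All knockout samples were far above WT, with log2 changes of 4.60 ± 0.305 (SE, limma adjusted p = 0.00014) and 4.27 ± 0.305 (limma adjusted p = 0.00019), and higher still after median-ratio scaling, at 5.47 and 4.99. Of the 8 genes of glucose entry and phosphorylation 3 were listed, and no hexokinase was among them. In each comparison 2 were called higher and 1, Slc2a1, lower, and after median-ratio scaling 2 higher and 0 lower. Slc2a1, the gene of GLUT1, was at 50.3 and 53.9 FPKM in WT and between 20.0 and 31.5 FPKM in the knockouts. At the phosphofructokinase step, which commits sugar to glycolysis, 5 of 8 were listed and 4 were called lower in each comparison. After median-ratio scaling 1 of the 5 was called lower in each. Among all genes 57.1% were called lower in Tnfr2-/- and 60.7% in Tnfr1-/-, and 13.6% and 14.1% higher. After scaling 21.0% and 22.1% of all genes were called lower, and 21.8% and 23.3% higher. Pfkp was at 50.8 and 53.3 FPKM in WT and between 9.83 and 13.8 FPKM in the knockouts, and it was called lower on both scales, with a log2 change of -2.07 in each comparison as deposited. Pfkl was at 19.1 and 24.7 FPKM in WT and between 6.53 and 8.73 FPKM in the knockouts, and Pfkm at 2.10 and 2.49 FPKM and between 0.664 and 1.13 FPKM. Both were called lower as deposited and were not called after median-ratio scaling. Tigar, a phosphatase that opposes the step, was the other gene called lower, with log2 changes of -0.89 in Tnfr1-/- and -1.23 in Tnfr2-/-, and after median-ratio scaling it was at -0.0015 and -0.47 and was not called in either. Pfkfb1, which makes the activator of phosphofructokinase, was at 0.680 and 0.716 FPKM in WT and between 0.290 and 0.473 FPKM in the knockouts and was not called.

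The branches from the triose and from pyruvate changed too. Gpd1, which turns dihydroxyacetone phosphate to glycerol 3-phosphate, was at 22.2 and 24.3 FPKM in WT, at 1.26 and 1.55 FPKM in Tnfr1-/-, and at 1.80 and 1.40 FPKM in Tnfr2-/-. It fell by 3.33 and 3.22 on the log2 scale (limma adjusted p = 2.9e-05 and 3.6e-05), and was at -2.39 and -2.36 after median-ratio scaling. Of the 16 genes of lactate export and pyruvate entry 14 were listed, and 12 of them were called lower in Tnfr1-/- and 11 in Tnfr2-/-, where 60.7% and 57.1% of all genes were. After median-ratio scaling 6 and 5 were called lower and 1 and 2 higher, and 7 were not called in each. On that scale 22.1% of all genes were called lower in Tnfr1-/- and 21.0% in Tnfr2-/-, and 23.3% and 21.8% higher. Slc16a1, the lactate carrier MCT1, was at 14.4 and 14.4 FPKM in WT, at 2.21 and 2.31 FPKM in Tnfr1-/-, and at 1.09 and 1.27 FPKM in Tnfr2-/-, log2 changes of -2.24 and -2.82, and -1.27 and -2.0 after median-ratio scaling. Mpc1, a subunit of the mitochondrial pyruvate carrier, was at 34.8 and 31.6 FPKM in WT, at 3.57 and 3.04 FPKM in Tnfr1-/-, and at 4.24 and 4.0 FPKM in Tnfr2-/-, log2 changes of -2.99 and -2.74, and -1.96 and -1.82 after median-ratio scaling. Gpd1, Slc16a1 and Mpc1 were below WT in every knockout sample and were called on both scales.

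Of the 43 pathway genes, 2 were called between the knockouts, where 1.45% of all genes were. Ldhb, the heart-type subunit of lactate dehydrogenase, was at 7.23 and 7.61 FPKM in WT, at 5.48 and 4.76 FPKM in Tnfr1-/-, and at 11.0 and 11.7 FPKM in Tnfr2-/-. The genotypes did not overlap, and Tnfr2-/- was 1.01 ± 0.0977 above Tnfr1-/- on the log2 scale (SE, limma adjusted p = 0.031). After median-ratio scaling Tnfr1-/- lay above WT, at 7.15 and 6.44 against 4.33 and 4.59, and Tnfr2-/- was at 13.9 and 13.3. Ldhb made 8.85% and 10.6% of the summed FPKM of Ldha and Ldhb in Tnfr2-/-, 4.22% and 4.42% in Tnfr1-/-, and 4.11% and 3.92% in WT. Ankrd37, a gene induced through HIF-1, was at 2.08 and 2.53 FPKM in WT, at 2.31 and 2.29 FPKM in Tnfr1-/-, and at 0.976 and 1.14 FPKM in Tnfr2-/-, and its log2 change between the knockouts was -0.68 ± 0.0911 (limma adjusted p = 0.040). After median-ratio scaling it was at 1.25 and 1.53 in WT, 3.01 and 3.10 in Tnfr1-/-, and 1.23 and 1.30 in Tnfr2-/-. Neither gene was called with any single sample left out apart from Tnfr2-/- replicate 1, with values from 0.93 to 1.10 for Ldhb and from -0.74 to -0.62 for Ankrd37. With the replicate number as a block in the model, the limma adjusted p was 0.067 for Ldhb and 0.072 for Ankrd37, and both calls were lost.

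**Figure D5:**
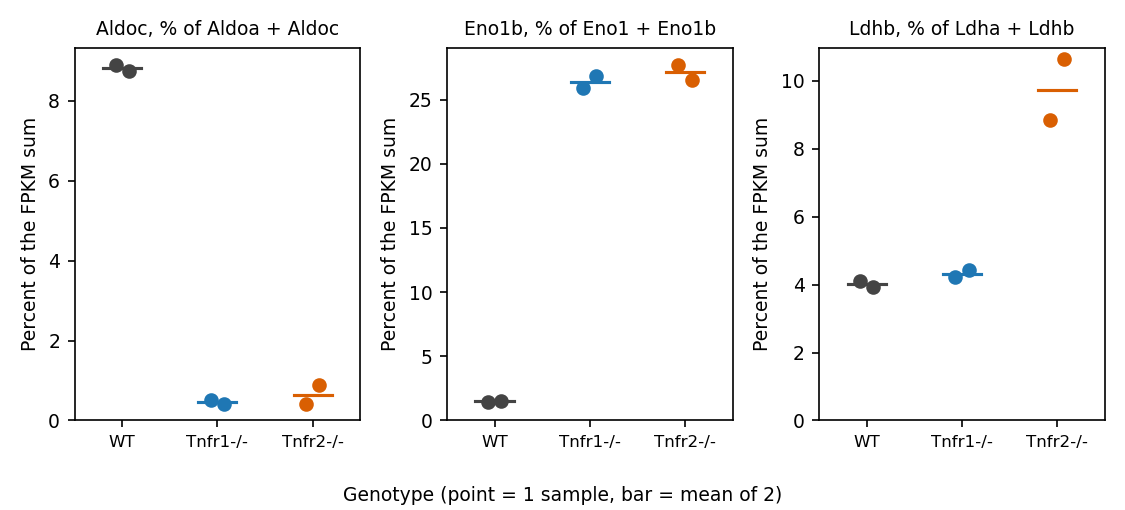
Share of the summed FPKM of 2 related genes (%) taken by Aldoc, Eno1b and Ldhb, with a point for each sample and a bar for the mean of 2. Aldoc drops from 8.90% and 8.75% in WT to under 1% in all knockout samples, Eno1b rises to over 25% in both knockouts (its reads cannot be told from those of Eno1 with certainty), and Ldhb is higher in the Tnfr2-/- samples than in the others.

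Gapdh, at -4.28 in Tnfr2-/- and -4.39 in Tnfr1-/-, fell by more than the median of other genes used as loading standards. Of 13 such genes 10 were listed (Actb was not analysed here), and in each comparison 8 were called lower and 2 were not called on the deposited scale, where 57.1% of all genes were called lower in Tnfr2-/- and 60.7% in Tnfr1-/-. Their median log2 changes were -1.33 in Tnfr2-/- and -1.52 in Tnfr1-/-. After median-ratio scaling 3 were called lower and 1 higher in each. On that scale 21.0% and 22.1% of all genes were called lower and 21.8% and 23.3% higher. B2m, the light chain of MHC class I, was at 3909 and 3988 FPKM in WT, at 1805 and 2188 FPKM in Tnfr1-/-, and at 1844 and 2679 FPKM in Tnfr2-/-, and it was not called (limma adjusted p = 0.054 in Tnfr1-/- and 0.091 in Tnfr2-/-). Its log2 change was -0.99 and -0.83 as deposited and above 0 after median-ratio scaling, at 0.15 and 0.17. B2m was called lower in both comparisons without Tnfr2-/- replicate 2, with a minimum mean of 1 FPKM (limma adjusted p = 0.0072 in Tnfr1-/- and 0.016 in Tnfr2-/-) and without the variance trend (limma adjusted p = 0.0091 and 0.017), and in Tnfr1-/- also without Tnfr2-/- replicate 1 and with the 2 groups alone. B2m stood at 59.9 and 53.5 times Gapdh in WT, at 671 and 1058 times in Tnfr1-/-, and at 622 and 1151 times in Tnfr2-/-. Division by mean Gapdh multiplied every ratio of a knockout to WT by 29.4 in Tnfr1-/- and by 26.4 in Tnfr2-/-.

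The genes nearest to Gapdh and to Aldoc in their pattern were found by Euclidean distance between log2(FPKM + 1) profiles over the 6 samples, each centred on its mean. Nearest to Gapdh were Vsig4, Pparg, Cd5l, Vwf and Cdh1, at distances from 0.228 to 0.327. Nearest to Aldoc were Vat1, Rpl29, Lrp12, Il11ra1 and Dpp7, at distances from 0.160 to 0.295. Vsig4 was at 17.2 and 20.6 FPKM in WT and between 0 and 0.257 FPKM in the knockouts. The added 1 exceeds those knockout values, so a small distance on this scale does not mean an equal fold change in FPKM. Rpl29 encodes a ribosomal protein and was at 228 and 226 FPKM in WT and between 3.86 and 5.87 FPKM in the knockouts.

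Markers of cell types moved with the same contrast as the glycolytic genes. All 11 of 11 macrophage markers were listed, none at 0, and their summed FPKM was 3526 and 3628 in WT, 284 and 326 in Tnfr1-/-, and 395 and 359 in Tnfr2-/-. In each comparison 10 of them were called lower and 1 higher, where 57.1% of all genes were called lower in Tnfr2-/- and 60.7% in Tnfr1-/-, and after median-ratio scaling 8 and 7 were called lower, where 21.0% and 22.1% of all genes were. Of 13 granulocyte markers 3 were listed, none at 0, with sums of 15.4 and 13.7 in WT, 3070 and 2732 in Tnfr1-/-, and 2450 and 1522 in Tnfr2-/-. Dendritic cell markers, 6 of 8, summed to 5960 and 6276 in WT and to between 920 and 1555 in the knockouts. Cd74, H2-Aa and H2-Ab1 made most of the WT sum. Of the 6, 4 were called lower in Tnfr2-/- and 5 in Tnfr1-/-, where 57.1% and 60.7% of all genes were. Flt3 was called higher in each, at 0.156 and 0.260 FPKM in WT and between 1.21 and 2.34 FPKM in the knockouts. Zbtb46 was under 1 FPKM in all samples. B cell markers, 4 of 6, summed to 46.5 and 46.9 in WT and to between 167 and 382 in the knockouts. Monocyte markers, 5 of 6, summed to 245 and 258 in WT, 307 and 362 in Tnfr1-/-, and 587 and 725 in Tnfr2-/-. Csf1r, at 225 and 237 FPKM, made most of the WT sum. As deposited, Csf1r was called lower and the other 4 higher in each comparison. Among all genes, 13.6% were called higher in Tnfr2-/- and 14.1% in Tnfr1-/-. After median-ratio scaling Csf1r was not called in either comparison. It was then at 135 and 143 in WT, 93.0 and 125 in Tnfr1-/-, and 173 and 194 in Tnfr2-/-. T cell markers, 3 of 6, summed to between 20.1 and 43.0 in all samples, but did not move together. Cd4 was at 24.2 and 25.7 FPKM in WT and between 3.86 and 4.89 FPKM in the knockouts. Cd3d was at 3.21 and 3.39 FPKM in WT and between 6.78 and 16.4 FPKM in the knockouts. Cd3g lay above WT in both Tnfr1-/- samples. Pf4, the 1 platelet marker of 5 that was listed, was at 104 and 118 FPKM in WT and between 3.12 and 4.30 FPKM in the knockouts. The 2 of 11 erythroid markers listed summed to 19.9 and 18.3 in WT and to between 7.05 and 11.4 in the knockouts. They moved in opposite directions. Tfrc fell, and Slc4a1 was at 0 in both WT samples and between 0.409 and 2.30 FPKM in the knockouts. No NK cell marker of 4 was listed. Of 5 genes that mark MDSCs, Ptprc and Ly6c1 were listed. Ly6c1, one of the genes behind the Ly6C antigen, was at 0.159 and 0.0638 FPKM in WT and between 95.8 and 178 FPKM in the knockouts. Ptprc, the gene of CD45, was at 98.2 and 105 FPKM in WT and between 229 and 271 FPKM in the knockouts. The WT samples thus went against the MDSC label in Ly6c1 and in the 3 granulocyte markers listed, but did not lack Ptprc. The defining genes Itgam, Ly6g and Ly6c2 were not analysed here. The part of these markers in the fall of the glycolytic genes was not tested.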

How the data were processed

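RNA-seq was read in 6 samples of splenic cells labelled as MDSCs, 2 each of WT, Tnfr1-/- and Tnfr2-/- mice, each a pool of 5 mice. The labels name SMARTer libraries from total RNA, and the methods name single-end reads of 50 bases. FPKM values per gene were deposited by the authors in 1 table. The submitters' processing notes name FastQC, edgeR and mm10, and the aligner, the counting of reads with several matches and the gene annotation are not given in the sources used here. A p-value column deposited by the authors holds their own comparison of the genotypes and was not used for any result. A one-way ANOVA recomputed from the values lay under 0.05 for all 8191 genes, so the table is a filtered one. The table gives no counts, so the depth of each sample is unknown and no counting interval is given. Per the study's methods the authors used edgeR, which was not applied to these FPKM values, and limma was used instead.

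FPKM values were put on the log2(FPKM + 1) scale and fitted with limma 3.58.1 (R 4.3.3, eBayes with trend) over all genes and all 6 samples. Tests were two-sided, with Benjamini-Hochberg adjustment over 8191 genes for each of 3 comparisons, and a call needed an adjusted p under 0.05 and a fold change over 1.5. The p-values measure the spread between 2 pools a genotype, from 2 experiments per the study. The fit was tested on simulated data. The 12 alternatives were another pseudocount, a minimum mean of 1 FPKM, 3 scalings, other fold thresholds, other variance and adjustment settings, a replicate block, the 2 compared groups alone, and leaving out each sample. Windows of 50 bases were counted on either strand over GENCODE M21 protein-coding transcripts of a gene against the transcripts of all others. Promoters came from the RefSeq table of GRCm38.p6, at the start with most protein-coding transcript starts within 150 bases. Python 3.11.15 with NumPy 2.4.6, SciPy 1.17.1, pandas 2.3.3, Biopython 1.88, numba 0.67.0 and matplotlib 3.10.9 served for the rest.

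The members and gene lists were chosen with earlier results of these data known. Named were all listed members, the 3 called pathway genes with the largest change in each comparison, listed Hk and Pfk genes, Actb and B2m where listed, the 5 genes nearest to Gapdh and to Aldoc, and the targeted genes. Eno1b, Tigar and Slc2a1 were named after their values were seen.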

Additional observations from a re-analysis of the deposited data

How the results depend on the processing

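Over the alternatives against WT, 256 of 272 values of the 8 genes kept their direction and call, 9 kept the direction and lost the call, and 7 reversed. Depth is unknown, each genotype had 2 pools, and every gene in the table had been picked for a difference. The cause of the changes below was not tested. Under median-ratio, quantile and same-sum scaling, Ldha reversed to 0.24, 0.21 and 0.43 on the log2 scale in Tnfr2-/- and to 0.49, 0.54 and 0.71 in Tnfr1-/-, and B2m to 0.17, 1.10 and 0.36 and to 0.15, 1.39 and 0.38. Pfkfb1 reversed to 0.080, 0.23 and 0.16 in Tnfr1-/-, and in Tnfr2-/- to 0.18 with quantile and 0.030 with same-sum scaling. Pgk1 reversed to 0.028 in Tnfr1-/- with same-sum scaling, and Pfkm to 0.027 in Tnfr2-/- with quantile scaling. Calls among the 8 genes ran from 7 to 8 in Tnfr1-/- and stayed at 8 in Tnfr2-/- when each sample was left out. Pathway calls went from 34 to 21 in Tnfr2-/- with median-ratio scaling, a split of 12 lower and 9 higher against 27 and 7. In Tnfr1-/- they went from 38 to 22 with median-ratio and 24 with quantile scaling.

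Between the knockouts 22 of 136 values of the 8 genes reversed, none of them called. Under median-ratio, quantile and same-sum scaling, Pgk1 was at -0.11, -0.16 and -0.14, Pgam1 at -0.068, -0.094 and -0.10, and Eno1 at -0.090, -0.21 and -0.12, and same-sum scaling put Gapdh at -0.021 and Tpi1 at -0.0068. Leaving out each sample gave -0.023 to 0.24 for Gapdh, -0.065 to 0.24 for Aldoc, -0.32 to 0.051 for Aldoa, -0.15 to 0.22 for Pgk1, -0.14 to 0.29 for Pgam1, -0.037 to 0.15 for Eno1 and -0.24 to 0.031 for Ldha. The 2 pathway calls became 4 with median-ratio scaling, 4 with same-sum scaling, 4 with no fold threshold, 1 with a fold over 2, and 0 with the 2 groups alone, without trend, with adjustment as for 25000 genes and with the block, and 0 to 4 with a sample left out (4 without Tnfr2-/- replicate 1). With the block, limma called 7 of all genes, and 1747 had an unadjusted p under 0.05. With the 2 groups alone it called 0, and 1436 had an unadjusted p under 0.05.

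The log2 ratio of Aldoc to Aldoa moved to -7.51 in Tnfr1-/- and -7.18 in Tnfr2-/- with 0.1 added in place of 1. In Tnfr1-/- it moved to -6.53 with median-ratio and -6.67 with quantile scaling, and in WT to -3.15 with quantile scaling. With the replicate number as a block, 8 and 8 glycolytic genes and 34 and 38 pathway genes were called against WT. Same-numbered samples deviated together only weakly, with correlations of 0.0217, 0.0299 and 0.0462 across genes. The study names 2 experiments, and whether a number marks the same experiment in each genotype is not given in the sources used here.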
